A study of Mus musculus with 14 samples.

Results

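Ribosome biogenesis genes encode the nucleolar machinery that transcribes, modifies, cuts and packs ribosomal RNA. The group followed here holds 41 such genes, named from textbook knowledge of the pathway. They were chosen with earlier results of these data known, so their counts beside all genes depend on that choice. A member was represented by the probe set with its highest mean over 14 arrays, among probe sets that the platform annotation maps to that symbol alone. By this rule 40 of the 41 members had a value, out of 18194 genes with a probe set, and all 40 were among the 11360 genes tested. Mrto4, which takes part in building the stalk of the large subunit, was measured only by a probe set that also maps to its pseudogenes and has no value here.

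Ribosomes are made in the nucleolus. RNA polymerase I copies the ribosomal DNA into a long precursor, small nucleolar ribonucleoproteins (snoRNPs) methylate it and convert uridines to pseudouridines, and the small subunit processome folds and cuts it. Separate sets of GTPases, helicases and scaffold proteins then assemble the small and the large subunit and hand them to the cytoplasm. The pathway uses much of the energy of a growing cell, and its genes are known to be induced by growth signals and by the transcription factor MYC, which binds E-boxes.

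The data are log2 expression values of whole mouse lung on 14 Affymetrix arrays, each labelled from 6 µg of RNA. The question of the series was how lung gene expression responds to the cytokine PBEF (the product of Nampt), to injury by a ventilator, and to their combination. Control (n = 4) received PBS, VALI (n = 4) was ventilated for 4 hours, PBEF+/- (n = 3) was not ventilated, and VILI PBEF+/- (n = 3) was ventilated for 4 hours. The sample labels give a tidal volume of 40 ml/kg for both ventilated groups, while the series text gives 30 ml/kg and names recombinant human PBEF placed in the trachea. Mice were 18-22 weeks old in Control, VALI and PBEF+/-, and 8-12 weeks old in VILI PBEF+/-, so that in this last group age and treatment cannot be told apart. The labels do not settle whether PBEF+/- names a genotype or the protein given, no strain is given in the sources used here, and every sample description speaks of a control animal. The group names are therefore used as labelled.

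In Il6, an inflammatory cytokine, 1 VALI array and 1 PBEF+/- array did not read like the rest of their groups. Il6 read 2.78 in VALI replicate 4 against 9.60 to 9.85 in the other VALI arrays, and 10.87 in PBEF+/- replicate 3 against 2.10 and 2.56 in the other PBEF+/- arrays. Il6 was 2.09 to 2.45 in Control and 10.32 to 12.75 in VILI PBEF+/-. Whether the labels of these 2 arrays were exchanged is not known from the sources used here, and an exchange would move both to other groups and alter every value given for all arrays. The main results are therefore printed for all 14 arrays, grouped by label, and for the 12 that remain when both are dropped. The choice of these 2 arrays was made on their own expression, with earlier results of these data known, so values and p-values without them depend on that choice. The lung markers Sftpc of alveolar type II cells, Scgb1a1 of club cells and Pecam1 of endothelium exceeded the array median in 14 of 14 arrays. Array medians lay between 4.60 and 4.75.

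The promoters of the members are shown first because E-boxes and ETS sites are motifs known from genes of this pathway. RefSeq sequences on the build GRCm38.p6, from 250 bases before to 50 after the transcription start, were found for 35 of the 41 members, with 38 promoters in all. The E-box letters CACGTG, which read the same on both strands, were present in the promoters of 5 of the 35 genes, Nop2, Ltv1, Pes1, Tsr1 and Wdr43. They stand in capitals below within 10 bases on either side, with base 1 as the transcription start. The match began at base -60 for Nop2 (chr6:125131813-125131838, plus strand), 29 for Ltv1 (chr10:13193094-13193119, minus strand), 3 for Pes1 (chr11:3963967-3963992, plus strand), 25 for Tsr1 (chr11:74898094-74898119, plus strand) and 18 for Wdr43 (chr17:71616222-71616247, plus strand). Only the Nop2 match lies before the start, and the other four lie within the transcribed bases.
Nop2: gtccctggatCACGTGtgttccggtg
Ltv1: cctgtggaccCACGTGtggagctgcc
Pes1: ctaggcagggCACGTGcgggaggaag
Tsr1: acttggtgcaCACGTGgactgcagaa
Wdr43: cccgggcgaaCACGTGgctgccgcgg

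The ETS core CGGAAG, or CTTCCG where it lies on the other strand, was present in 20 of the 35 genes. The 120 bases before the start of 4 members are printed to show how the matches lie, with E-box and ETS core letters in capitals. Nop2 (chr6:125131763-125131882, plus strand) holds 1 E-box and 1 ETS core there, Gar1 (chr3:129831397-129831516, minus strand) holds an ETS core on each strand, and Tsr1 (chr11:74897960-74898079, plus strand) holds 1 ETS core. Nop56 (chr2:130274292-130274411, plus strand) holds neither motif in this stretch.
Nop2: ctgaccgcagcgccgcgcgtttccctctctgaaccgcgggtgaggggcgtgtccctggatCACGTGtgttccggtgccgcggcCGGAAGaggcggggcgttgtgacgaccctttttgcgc
Gar1: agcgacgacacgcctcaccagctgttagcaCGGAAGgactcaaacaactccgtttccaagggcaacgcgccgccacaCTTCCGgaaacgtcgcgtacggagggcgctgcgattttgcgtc
Tsr1: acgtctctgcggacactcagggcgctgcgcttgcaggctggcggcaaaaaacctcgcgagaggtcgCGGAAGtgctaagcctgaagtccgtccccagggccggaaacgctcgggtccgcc
Nop56: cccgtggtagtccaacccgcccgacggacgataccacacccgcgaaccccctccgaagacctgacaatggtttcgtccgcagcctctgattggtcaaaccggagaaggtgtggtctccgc

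Across arrays the members moved largely together. As a summary, each array was given a score, the mean over the 40 members of the array's log2 value minus the gene's mean over the 14 arrays. The score was -0.40, -0.32, -0.30 and -0.18 in Control, 0.18, 0.19, 0.36 and -0.24 in VALI, -0.37, -0.39 and 0.31 in PBEF+/-, and 0.41, 0.39 and 0.36 in VILI PBEF+/-, in replicate order. VALI replicates 1 to 3 and all VILI PBEF+/- arrays were above 0, all Control arrays were below 0, and VALI replicate 4 and PBEF+/- replicate 3 lay on the other side of 0 from the rest of their groups. Between 33 and 38 of the 40 members exceeded their own mean in each of the 7 arrays above 0, and 2 to 11 did so in each of the other 7. The mean over all genes tested, computed the same way, stayed between -0.09 and 0.12 in every array. In bulk samples such as these, more cells of a type that expresses these genes and more RNA per cell cannot be told apart.

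**Figure D1:**
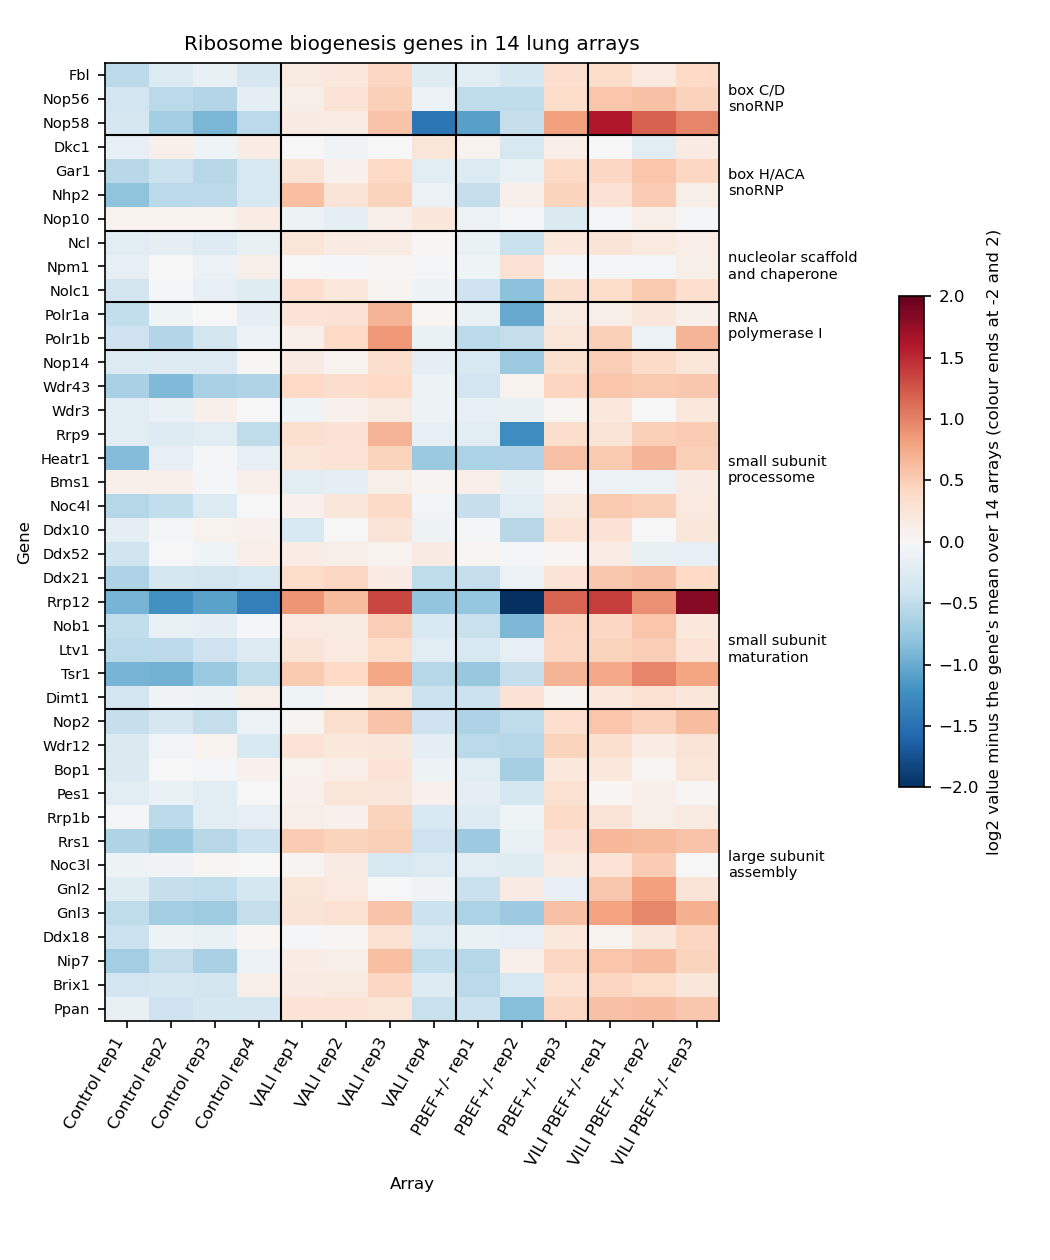
Log2 value of each of 40 ribosome biogenesis genes (rows, grouped by role) minus the gene's mean over 14 arrays, by array (columns), with black lines between groups and roles. Most rows are blue in Control, VALI replicate 4 and PBEF+/- replicates 1 and 2. Most are red in VALI replicates 1 to 3, PBEF+/- replicate 3 and VILI PBEF+/-.

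Ventilated lungs were compared with unventilated lungs by averaging the VALI minus Control and the VILI PBEF+/- minus PBEF+/- differences in limma. In the PBEF+/- pair the ventilated mice were also younger, so age and ventilation cannot be told apart there. With all 14 arrays, 16 of the 40 members rose at an adjusted p under 0.05 and 0 fell, beside 4.09% of all genes tested that rose and 8.36% that were called in either direction. The difference was above 0 for 39 of the 40 members, with a median of 0.51 on the log2 scale against -0.05 over all genes tested. The members that rose were Nop56, Gar1, Nhp2, Ncl, Nolc1, Wdr43, Noc4l, Ddx21, Rrp12, Ltv1, Tsr1, Nop2, Rrs1, Gnl2, Gnl3 and Ppan. Without VALI replicate 4 and PBEF+/- replicate 3, 31 members rose and 0 fell, with a median of 0.66, beside 14.9% of all genes that rose and 39.5% called in either direction. With all arrays 0 members had every ventilated array above every unventilated array, beside 0.185% of all genes, and without the 2 arrays 27 of 40 did, beside 7.79%.

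The number of calls with all arrays rested on a narrow margin. The 16 adjusted p-values lay between 0.028 and 0.0491, and 0 members passed when Control replicate 2, VALI replicate 1, 2 or 3, PBEF+/- replicate 1 or 2, or VILI PBEF+/- replicate 1 or 2 was left out. In those fits 0 of the 11360 genes were called either. Without Control replicate 1, 3 or 4 the counts were 5, 3 and 5, beside 271, 154 and 160 genes called. Without VILI PBEF+/- replicate 3 the count was 13, beside 1025 genes, without VALI replicate 4 it was 26, beside 2698 genes, and without PBEF+/- replicate 3 it was 29, beside 3419 genes. Over all 14 fits that leave out 1 array the members' median difference stayed between 0.40 and 0.61, and 37 to 39 of the 40 differences were above 0. No statement in the labels says that each array is a separate animal, so p-values here stand for the spread among these samples only, which may be technical.

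**Figure D2:**
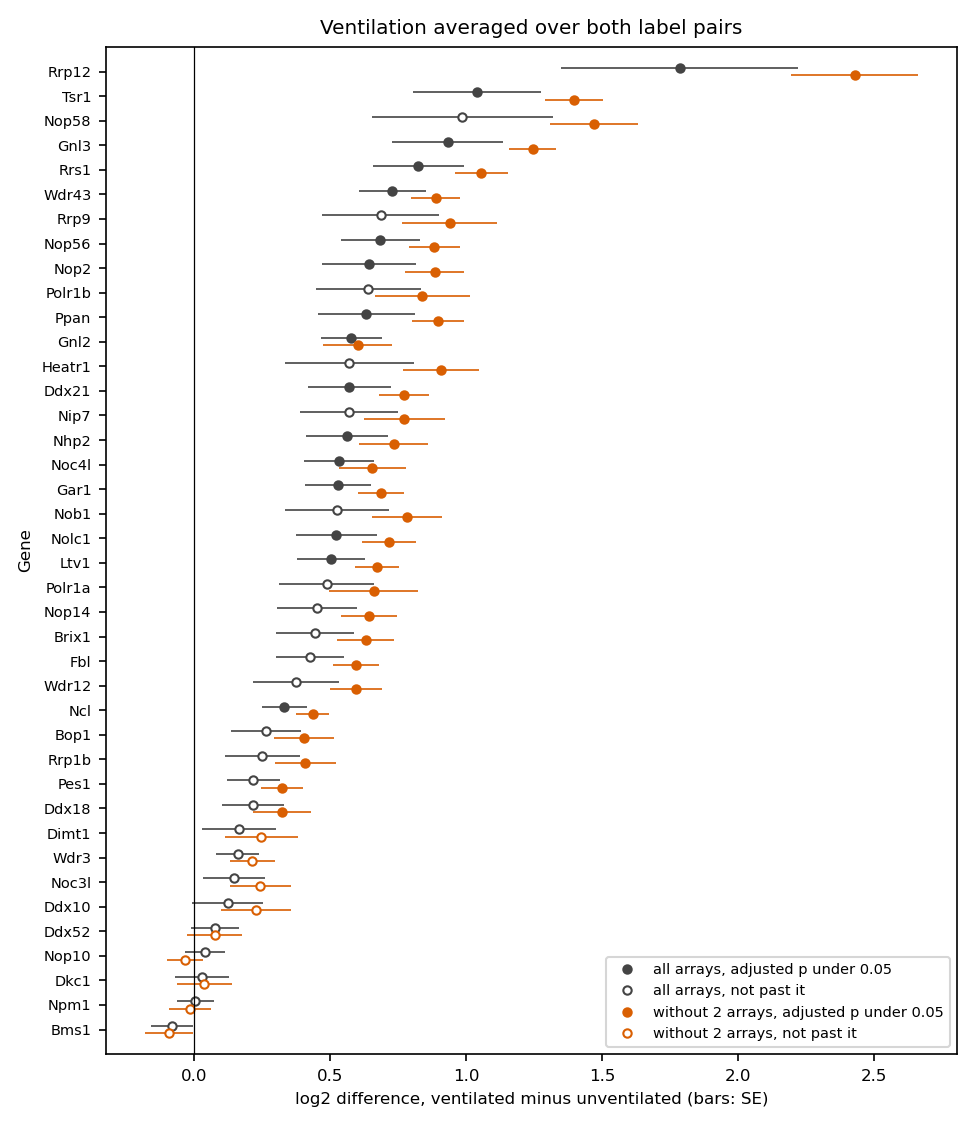
Log2 difference of each of 40 members in ventilated minus unventilated lungs, averaged over both label pairs, with bars for the standard error, in grey for all 14 arrays and in orange without VALI replicate 4 and PBEF+/- replicate 3. Filled points have an adjusted p under 0.05 in limma, and they number 16 in grey and 31 in orange, all to the right of 0.

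Of the 3 core proteins of the box C/D snoRNPs, which methylate ribosomal RNA, Nop56 rose with all arrays and all 3 rose without the 2 arrays. Nop56, which with Nop58 forms the scaffold of these particles, read 9.13, 8.97, 8.94 and 9.32 in Control, 9.63, 9.79, 9.99 and 9.40 in VALI, 9.01, 9.0 and 9.89 in PBEF+/-, and 10.07, 10.11 and 9.98 in VILI PBEF+/-. Every VALI array was above every Control array and every VILI PBEF+/- array above every PBEF+/- array, although PBEF+/- replicate 3 came within the range of the ventilated lungs. Nop56 rose by 0.68 ± 0.15 (SE, 1.61-fold, adjusted p = 0.0313), and by 0.88 ± 0.09 without the 2 arrays (adjusted p = 5.13e-05, with 5.13e-05 to 0.0934 over 28 alternative settings).

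Fbl, the methyltransferase of the same particles, read 10.16, 10.40, 10.52 and 10.33 in Control, 10.85, 10.88, 11.08 and 10.43 in VALI, 10.46, 10.32 and 11.01 in PBEF+/-, and 11.05, 10.86 and 11.08 in VILI PBEF+/-. VALI replicate 4 lay within the Control range and PBEF+/- replicate 3 within the VILI PBEF+/- range, and no other array crossed between ventilated and unventilated lungs. Its difference of 0.43 ± 0.12 did not pass (adjusted p = 0.0518), and it rose by 0.59 ± 0.08 without the 2 arrays (adjusted p = 0.000335, with 0.000335 to 0.132 over the alternatives). Nop58 read 8.13, 7.77, 7.55 and 7.92 in Control, 8.62, 8.62, 9.04 and 7.02 in VALI, 7.37, 8.01 and 9.29 in PBEF+/-, and 10.06, 9.64 and 9.44 in VILI PBEF+/-. VALI replicate 4 was the lowest of all 14 arrays for Nop58, and VILI PBEF+/- stood above every other array. The Nop58 difference was 0.99 ± 0.33 with all arrays (adjusted p = 0.0723) and 1.47 ± 0.16 without the 2 arrays (adjusted p = 6.78e-05, with 6.78e-05 to 0.173 over the alternatives). Nop58 was named after its values were seen.

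The 4 proteins of the box H/ACA snoRNPs, which make pseudouridine, did not move alike. Gar1 read 8.76, 8.87, 8.75 and 8.99 in Control, 9.56, 9.40, 9.70 and 9.07 in VALI, 9.03, 9.17 and 9.69 in PBEF+/-, and 9.72, 9.86 and 9.71 in VILI PBEF+/-. Within each label pair its ventilated and unventilated arrays did not overlap, and it rose by 0.53 ± 0.12 (1.44-fold, adjusted p = 0.0332). Nhp2, another protein of the particle, read 9.79, 10.07, 10.08 and 10.29 in Control, 11.20, 10.86, 11.05 and 10.49 in VALI, 10.13, 10.71 and 11.04 in PBEF+/-, and 10.88, 11.11 and 10.72 in VILI PBEF+/-. All VALI arrays were above all Control arrays, and PBEF+/- replicate 3 lay among the VILI PBEF+/- arrays. Nhp2 rose by 0.56 ± 0.15 (1.48-fold, adjusted p = 0.0429). Without the 2 arrays the differences were 0.69 ± 0.08 for Gar1 and 0.73 ± 0.13 for Nhp2, and both passed.

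Nop10, the smallest protein of the same particle, stayed between 11.10 and 11.62 in all 14 arrays. It read 11.46, 11.47, 11.46 and 11.54 in Control, 11.29, 11.21, 11.50 and 11.62 in VALI, 11.28, 11.38 and 11.10 in PBEF+/-, and 11.37, 11.51 and 11.36 in VILI PBEF+/-. The groups overlapped, and its difference of 0.04 had a 95% interval from -0.12 to 0.20. Without the 2 arrays the Nop10 difference was -0.03 (-0.18 to 0.11), so its sign is not settled. Dkc1, the pseudouridine synthase itself, differed by 0.03 (-0.18 to 0.24) with all arrays and by 0.04 (-0.19 to 0.26) without the 2 arrays, and did not pass in either.

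Of the nucleolar scaffold and chaperone proteins, nucleolin and the snoRNP chaperone Nolc1 rose while nucleophosmin did not pass. Ncl (nucleolin), which binds ribosomal DNA and its transcripts, read 13.12, 13.12, 13.06 and 13.18 in Control, 13.57, 13.49, 13.48 and 13.34 in VALI, 13.20, 12.89 and 13.54 in PBEF+/-, and 13.58, 13.52 and 13.46 in VILI PBEF+/-. All VALI arrays exceeded all Control arrays, and PBEF+/- replicate 3 was the only unventilated array within the range of the ventilated arrays. Ncl rose by 0.33 ± 0.08 (1.26-fold, adjusted p = 0.038), and by 0.44 ± 0.06 without the 2 arrays. Nolc1 rose by 0.52 ± 0.15 (1.44-fold, adjusted p = 0.0491). Npm1 (nucleophosmin), the abundant chaperone of the outer nucleolus, differed by 0.00 with a 95% interval from -0.14 to 0.15, and by -0.01 (-0.18 to 0.15) without the 2 arrays.

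The members encoding RNA polymerase I were its largest and its second largest subunit. Polr1b read 6.15, 5.98, 6.19 and 6.45 in Control, 6.66, 6.96, 7.42 and 6.43 in VALI, 6.02, 6.09 and 6.80 in PBEF+/-, and 7.03, 6.44 and 7.24 in VILI PBEF+/-. Control replicate 4 overlapped with the lowest arrays of both ventilated groups, and VILI PBEF+/- replicate 2 was low beside its group. Polr1a read 6.43, 6.82, 6.92 and 6.72 in Control, 7.19, 7.20, 7.60 and 6.95 in VALI, 6.78, 5.91 and 7.10 in PBEF+/-, and 7.03, 7.13 and 7.01 in VILI PBEF+/-. VALI stood above Control without overlap, while PBEF+/- replicate 2 was the lowest of all arrays. With all arrays neither difference passed, at 0.64 ± 0.19 for Polr1b (adjusted p = 0.0554) and 0.49 ± 0.17 for Polr1a (adjusted p = 0.0836), and without the 2 arrays both rose, by 0.84 ± 0.18 and 0.66 ± 0.16.

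In the small subunit processome, the large particle that forms on the growing precursor, 3 of 10 members rose with all arrays and 6 rose without the 2 arrays. Wdr43, a subunit of its first-binding module, read 9.11, 8.89, 9.11 and 9.17 in Control, 10.17, 10.12, 10.17 and 9.67 in VALI, 9.38, 9.85 and 10.21 in PBEF+/-, and 10.32, 10.29 and 10.31 in VILI PBEF+/-. The ventilated and unventilated arrays of each label pair did not overlap, and VILI PBEF+/- spanned 10.29 to 10.32. Wdr43 rose by 0.73 ± 0.12 (1.66-fold, adjusted p = 0.028), and it passed in 19 of 28 alternative settings with an adjusted p between 4.08e-05 and 0.0883. Bms1, a GTPase of the processome, read 11.14, 11.14, 11.01 and 11.14 in Control, 10.82, 10.86, 11.16 and 11.09 in VALI, 11.18, 10.90 and 11.07 in PBEF+/-, and 10.92, 10.93 and 11.20 in VILI PBEF+/-. The groups overlapped, and the Bms1 difference of -0.08 (-0.25 to 0.09) was the only one below 0 among the 40 members with all arrays. The other probe set of Bms1 differed by 0.19 with all arrays and by 0.25 without the 2 arrays, so this sign depends on the probe set.

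Among the other processome members, Noc4l rose by 0.53 ± 0.13 and the RNA helicase Ddx21, which links polymerase I transcription to processing, by 0.57 ± 0.15. Rrp9, a protein of the snoRNP that guides processome assembly, differed by 0.69 ± 0.21 and Heatr1 by 0.57 ± 0.24, and neither passed with all arrays (adjusted p = 0.0616 and 0.121). Nop14 differed by 0.45 ± 0.15 and did not pass (adjusted p = 0.0672). These 3 rose without the 2 arrays, by 0.94 ± 0.17, 0.91 ± 0.14 and 0.64 ± 0.10. Wdr3 and the helicases Ddx10 and Ddx52 differed by 0.16, 0.12 and 0.08 and passed in neither setting.

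With all arrays, the factors that complete the small subunit held the 2 largest differences among the 40 members, those of Rrp12 and Tsr1. Rrp12, needed for the export of both subunit precursors, read 5.86, 5.59, 5.73 and 5.44 in Control, 7.67, 7.43, 8.14 and 6.01 in VALI, 6.03, 4.79 and 7.96 in PBEF+/-, and 8.18, 7.71 and 8.62 in VILI PBEF+/-. Its 14 values spanned 3.83 on the log2 scale, the widest range of the 40 members, and VALI replicate 4 lay just above Control. Rrp12 rose by 1.79 ± 0.44 (3.45-fold, adjusted p = 0.0367), and by 2.43 ± 0.23 (5.38-fold) without the 2 arrays (adjusted p = 2.78e-05, with 2.78e-05 to 0.103 over the alternatives). It was named after its values were seen.

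Tsr1, a GTPase-like protein that keeps the immature small subunit from starting translation, read 9.04, 9.02, 9.22 and 9.46 in Control, 10.48, 10.37, 10.73 and 9.39 in VALI, 9.20, 9.49 and 10.64 in PBEF+/-, and 10.72, 10.93 and 10.75 in VILI PBEF+/-. VALI replicate 4 lay within Control, and PBEF+/- replicate 3 within the other VALI arrays. Tsr1 rose by 1.04 ± 0.24 (2.06-fold, adjusted p = 0.0332), and by 1.40 ± 0.11 (2.63-fold) without the 2 arrays. Ltv1, another assembly factor of the small subunit, read 9.07, 9.09, 9.20 and 9.35 in Control, 9.86, 9.81, 9.97 and 9.40 in VALI, 9.28, 9.44 and 10.03 in PBEF+/-, and 10.05, 10.09 and 9.88 in VILI PBEF+/-. VALI and Control did not overlap, and PBEF+/- replicate 3 lay among VILI PBEF+/-. Ltv1 rose by 0.50 ± 0.13 (1.42-fold, adjusted p = 0.0379). Nob1, the nuclease that makes the final cut in the small subunit RNA, differed by 0.52 ± 0.19 and did not pass (adjusted p = 0.0872), and the methyltransferase Dimt1 differed by 0.17 ± 0.13 (adjusted p = 0.401).

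Of the 13 large subunit assembly members with a value, 5 rose with all arrays and 12 without the 2 arrays. Rrs1, which helps to place a small ribosomal RNA in the large subunit, read 10.91, 10.76, 10.96 and 11.09 in Control, 12.02, 11.96, 11.99 and 11.10 in VALI, 10.79, 11.37 and 11.81 in PBEF+/-, and 12.18, 12.15 and 12.08 in VILI PBEF+/-. VALI replicate 4 was low beside its group and just above the highest Control array, and the label pairs did not overlap. Rrs1 rose by 0.82 ± 0.17 (1.77-fold, adjusted p = 0.03). Gnl2, a GTPase of the nuclear large subunit precursor, read 10.28, 10.06, 10.03 and 10.17 in Control, 10.77, 10.71, 10.51 and 10.46 in VALI, 10.07, 10.69 and 10.36 in PBEF+/-, and 11.06, 11.34 and 10.77 in VILI PBEF+/-. The label pairs did not overlap, and VALI replicate 4 and PBEF+/- replicate 3 stayed within their groups' other values or close to them. Gnl2 rose by 0.58 ± 0.11 (1.49-fold, adjusted p = 0.0282), and by 0.60 ± 0.13 without the 2 arrays.

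Gnl3 (nucleostemin), a GTPase abundant in proliferating cells, read 9.71, 9.52, 9.51 and 9.75 in Control, 10.48, 10.53, 10.80 and 9.79 in VALI, 9.59, 9.49 and 10.80 in PBEF+/-, and 11.02, 11.18 and 10.93 in VILI PBEF+/-. The label pairs did not overlap for Gnl3, which rose by 0.93 ± 0.20 (1.91-fold, adjusted p = 0.0318), and it was named after its values were seen. The RNA methyltransferase Nop2 rose by 0.64 ± 0.17 and Ppan by 0.63 ± 0.18. The PeBoW complex of Pes1, Bop1 and Wdr12, which acts in the processing of large subunit RNA, did not pass with all arrays, at 0.22 ± 0.10, 0.27 ± 0.13 and 0.37 ± 0.16. Without the 2 arrays these 3 genes rose by 0.32 ± 0.08, 0.41 ± 0.11 and 0.59 ± 0.10. Nip7 and Brix1 differed by 0.57 and 0.44 and the helicase Ddx18 and Rrp1b by 0.22 and 0.25, and these 4 rose only without the 2 arrays. Noc3l differed by 0.15 ± 0.11 and passed in neither setting.

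**Figure D3:**
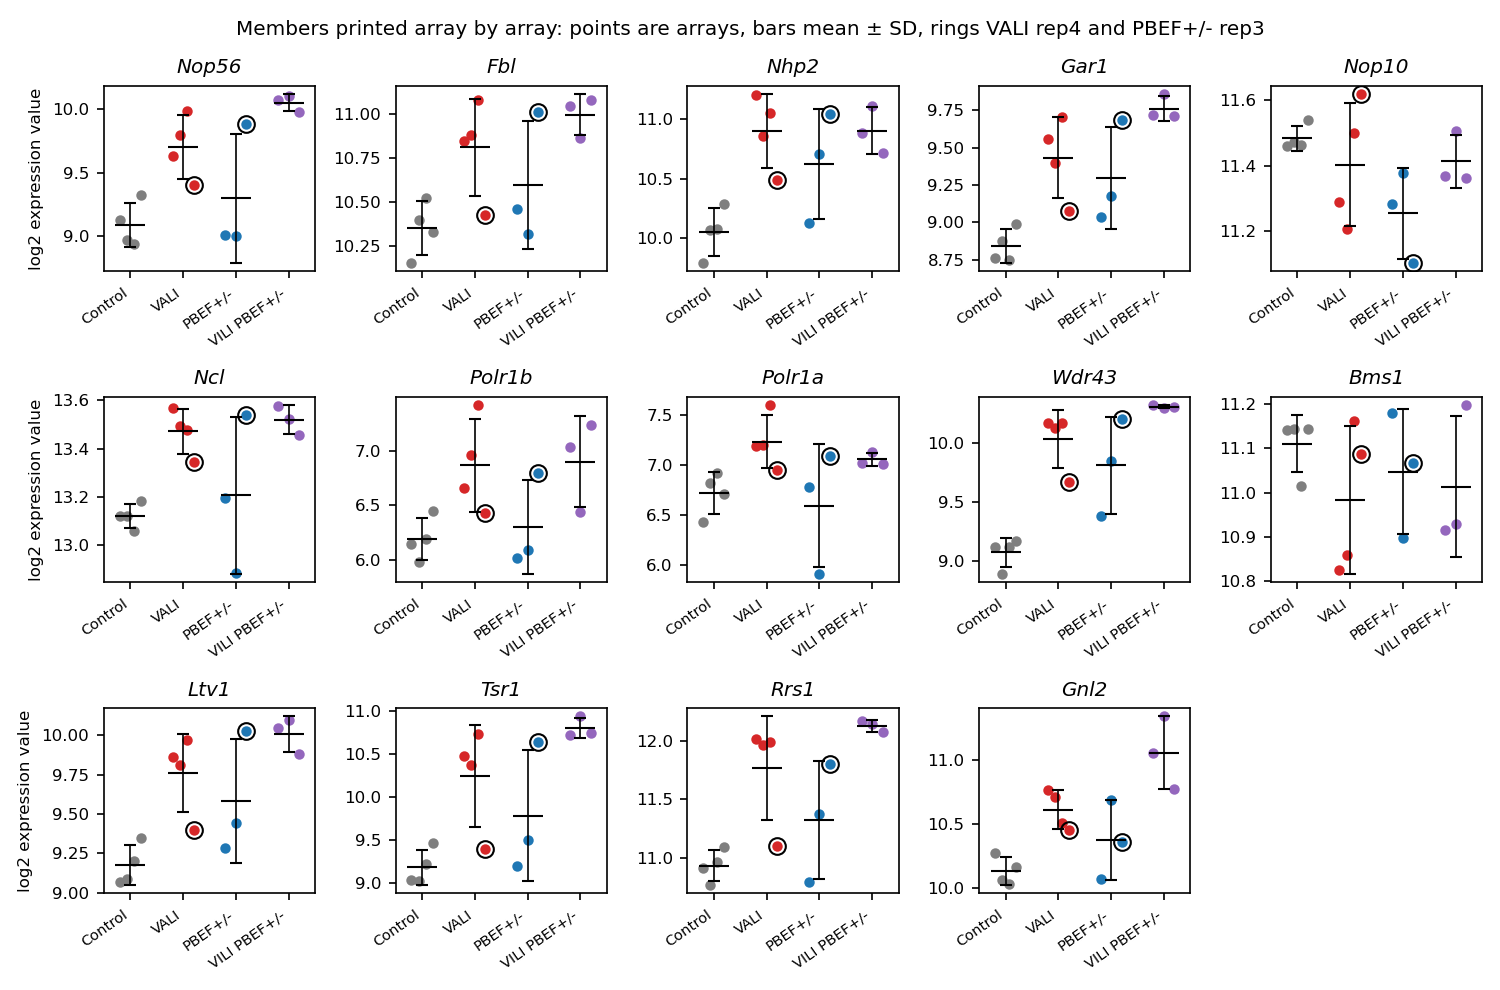
Log2 values of 14 members by group, with points for arrays, bars for the mean and SD, and rings around VALI replicate 4 and PBEF+/- replicate 3. For Nop56, Gar1, Wdr43 and Rrs1 the ventilated arrays of each label pair lie above its unventilated arrays, and for Nop10 and Bms1 the groups overlap.

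VALI was compared with Control to ask what ventilation did in lungs without the PBEF+/- label. With all arrays, 0 of the 40 members were called by limma, beside 0% of all genes tested, and 18 members and 2075 genes had an unadjusted p under 0.05. The members' median difference was 0.38 against -0.06 over all genes, and 36 of the 40 were above 0. For 13 members, among them Nop56, Ncl, Polr1a and Pes1, every VALI array was above every Control array, as it was for 4.70% of all genes. Leaving out VALI replicate 4 alone gave 10 called members, beside 680 of 11360 genes called, of which 300 were higher. Leaving out PBEF+/- replicate 3 alone gave 9, beside 288 genes called, of which 186 were higher, although that array enters this comparison only through the spread estimated over all groups. Leaving out PBEF+/- replicate 1 gave 1, beside 7 genes. Without both arrays 24 members rose and 0 fell, beside 6.53% of all genes that rose and 17.0% called in either direction, and 29 members had no overlap, beside 12.4% of all genes. Rrp12 rose then by 2.09 ± 0.30 (4.26-fold), Tsr1 by 1.34 ± 0.14 (2.53-fold) and Wdr43 by 1.08 ± 0.12 (2.12-fold).

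VILI PBEF+/- was compared with PBEF+/- to ask the same in lungs with that label, where the ventilated mice were also younger. With all arrays, 0 of the 40 members were called by limma, beside 0% of all genes, and 21 members and 2355 genes had an unadjusted p under 0.05. The median difference was 0.48 against -0.05 over all genes, 37 of the 40 were above 0, and for 14 members the groups did not overlap, beside 8.47% of all genes. Without PBEF+/- replicate 3 alone 24 members were called, beside 2157 of 11360 genes, of which 994 were higher. Without both arrays 26 members rose and 0 fell, beside 11.2% of all genes that rose and 26.4% called in either direction, with 2 PBEF+/- arrays left, and 34 members did not overlap, beside 20.9% of all genes. Rrp12 rose then by 2.76 ± 0.36 (6.78-fold), Nop58 by 2.03 ± 0.25 (4.07-fold) and Gnl3 by 1.50 ± 0.13 (2.84-fold).

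The responses in both label pairs, which share no array, can be set side by side. Over the 40 members 34 were above 0 in both pairs with all arrays and 35 without the 2 arrays. Of all genes tested, 41.5% were above 0 in the VALI pair and 44.5% in the PBEF+/- pair with all arrays. Without the 2 arrays these shares were 39.7% and 44.0%. The share above 0 in both pairs at once is not given here. The VILI PBEF+/- minus PBEF+/- difference was the larger for 24 members with all arrays and for 31 without the 2 arrays. It was the larger for 52.4% and 52.1% of all genes tested. The members' balance was not stable. Their count was 12 of 40, with a median interaction of -0.09, in the 10 arrays of female pattern alone. It ranged from 12 to 36 over 28 alternatives. Across the 40 members, which are not independent replicates, Pearson's r between both responses was 0.73 with all arrays and 0.82 without the 2 arrays. Without the 2 arrays 21 members rose in both pairs. Of all genes tested, 6.53% rose in the VALI pair and 11.2% in the PBEF+/- pair. The share of all genes that rose in both pairs at once is not given here, so the 21 has no like share beside it. Nhp2, Pes1 and Rrp1b passed in the VALI pair alone, and Bop1, Nob1, Nolc1, Nop14 and Wdr12 in the PBEF+/- pair alone.

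The difference between both responses was tested as an interaction in limma, and 0 of the 40 members were called in either setting, beside 0% of all genes. The younger VILI PBEF+/- mice enter it, so label and age cannot be told apart in it. At an unadjusted p under 0.05, 0 members and 634 genes passed with all arrays, and 7 members and 1176 genes without the 2 arrays. Those 7 members were Nop58, Nolc1, Nop14, Nob1, Wdr12, Gnl3 and Ppan, each with the larger response in the PBEF+/- pair. Nop58 had the largest interaction, 1.01 (95% interval -0.42 to 2.44, adjusted p = 0.904) with all arrays and 1.11 (0.40 to 1.83, adjusted p = 0.373) without the 2 arrays. The 95% intervals reached 0.61 on either side of the estimate in the median member with all arrays and 0.46 without the 2 arrays, so a smaller difference between the responses could not be told from 0 in such a member.

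**Figure D4:**
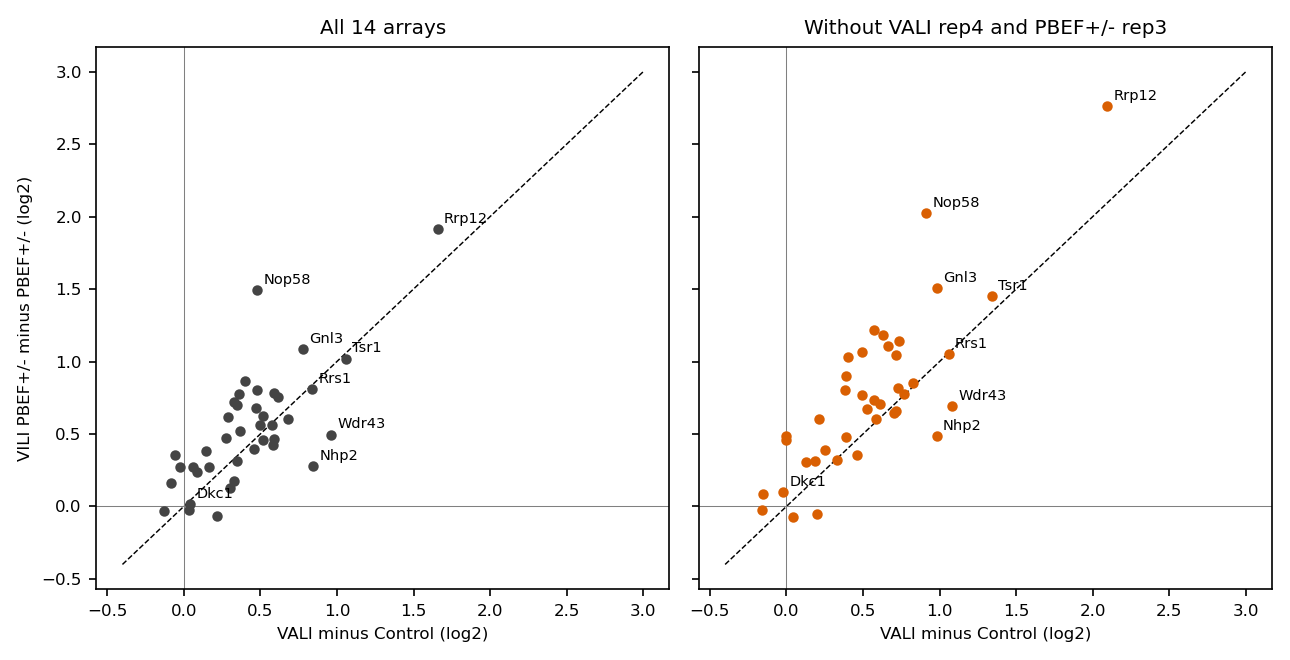
Log2 difference of 40 members in VILI PBEF+/- minus PBEF+/- (vertical) against VALI minus Control (horizontal), with all 14 arrays (left) and without VALI replicate 4 and PBEF+/- replicate 3 (right), and a dashed line where both are equal. Points lie mostly in the upper right, and 24 of 40 lie above the line on the left and 31 on the right.

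The PBEF+/- label by itself was compared with Control in unventilated lungs. In limma 0 members were called with all arrays or without the 2 arrays, beside 0% of all genes, and 5 and 7 members had an unadjusted p under 0.05, beside 938 and 1257 genes. The members' median difference was 0.09 with all arrays and -0.09 without the 2 arrays, so its sign depended on PBEF+/- replicate 3. Wdr43 had the largest difference in both settings, 0.74 ± 0.18 (adjusted p = 0.593) and 0.54 ± 0.13 (adjusted p = 0.45). Ventilated lungs with and without the label were compared as VILI PBEF+/- against VALI. The VILI PBEF+/- mice were younger (8-12 against 18-22 weeks), so label and age cannot be told apart in this comparison. In it limma called 0 members in both settings, beside 0% of all genes with all arrays and 0.114% without the 2 arrays. There, 4 members had an unadjusted p under 0.05 in either setting, beside 1191 and 858 genes. The members' median difference in that comparison was 0.25 with all arrays and 0.14 without the 2 arrays, and Nop58 had the largest, 1.39 ± 0.47 (adjusted p = 0.426) and 0.96 ± 0.22 (adjusted p = 0.179). Comparisons that use the same Control, VALI or PBEF+/- arrays share those arrays' errors.

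The rest of the pathway was followed on 153 further genes in 7 lists, of which 141 were tested. In ventilation averaged over both label pairs, 16 of the 141 rose and 2 fell in limma, with a median difference of 0.15, beside 4.09% of all genes that rose and 8.36% called in either direction. Without the 2 arrays 66 rose and 5 fell, with a median of 0.27, beside 14.9% and 39.5% of all genes. Other large subunit assembly genes gave 10 of the 16, from 45 tested, and other small subunit processome genes gave 3 of 37. Other small subunit maturation genes gave 1 of 8 and nucleolar helicases 1 of 10. Of 9 snoRNP assembly genes and 20 exosome and RNase MRP genes, which trim and degrade RNA, 0 passed with all arrays, and 1 and 3 rose without the 2 arrays. Exosc7 of the exosome list fell without the 2 arrays. The snoRNP assembly genes had a median difference of -0.04 with all arrays and -0.06 without the 2 arrays, with 3 of 9 above 0 in both settings. The exosome and RNase MRP genes had medians of 0.07 and 0.12.

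By name, Gtpbp4, a GTPase of the large subunit precursor, rose by 0.93 ± 0.15 (adjusted p = 0.028), Riok2, a kinase of the late small subunit precursor, by 0.79 ± 0.12 (adjusted p = 0.028), and Taf1d, a subunit of the factor that selects the ribosomal DNA promoter, by 0.68 ± 0.11 (adjusted p = 0.028). Sdad1 rose by 0.75 ± 0.16 and Rpf2, the partner of Rrs1, by 0.61 ± 0.13. The genes that fell were Taf1b, another subunit of that promoter factor, at -0.54 ± 0.13 (adjusted p = 0.0367), and Ttf1, which ends polymerase I transcription, at -0.30 ± 0.08 (adjusted p = 0.0447). They were named after their values were seen, and both also fell without the 2 arrays, at -0.63 ± 0.13 and -0.33 ± 0.08. The polymerase I list thus held calls in both directions, 1 rise and 2 falls among 12 genes.

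Promoter motifs were set against the responses as a description. Each was searched on both strands, and matches of different motifs were counted whether or not they overlapped. E-box letters were present in 5 of 35 member genes (14.3%), in 11.7% of the tested genes with a promoter in the table and in 8.09% of all genes of the table. The ETS core was present in 57.1% of member genes, 34.4% of tested genes and 18.8% of all genes, and TATAAA in 8.57%, 9.33% and 15.7%. Median GC content was 59.7% over member promoters, 60.7% over promoters of tested genes and 52.7% over all, and genes with several promoters count as holding a motif when any of them does. Of the 5 members with an E-box 4 rose in ventilation averaged over both label pairs with all arrays, with a median difference of 0.64, and of the 29 tested members without one 9 rose, with a median of 0.49. Of 20 members with an ETS core 8 rose, and of 14 without 5 rose, with medians of 0.51 and 0.51. Of all genes tested 4.09% rose. Neither split was made over all genes, and whether a motif goes with the response was not tested.

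Of the cell type markers followed, the sum of those of neutrophils moved with the members, though not every marker in it did. The summed level of 12 neutrophil markers, of which 11 were tested, was 11.80 to 12.81 on the log2 scale in Control, 11.94 to 15.71 in VALI with replicate 4 the lowest, 12.02 to 15.46 in PBEF+/- with replicate 3 the highest, and 15.30 to 15.42 in VILI PBEF+/-. In ventilation averaged over both label pairs 6 of the 11 rose with all arrays and 9 without the 2 arrays. Of the 12, Camp exceeded the array median in 0 arrays, while S100a8, S100a9, Csf3r and Cxcr2 did so in 14. S100a8 and S100a9 weigh most in the high sums. Ltf and Ngp did not follow the members. Ltf read 10.59, 10.76, 10.30 and 7.30 in Control and 10.16, 10.27 and 9.82 in VILI PBEF+/-. Ngp read 4.57, 6.08, 4.89 and 3.42 in Control and 4.70, 4.67 and 3.64 in VILI PBEF+/-. The summed level of 8 B cell markers moved against the members. It was 10.83 to 11.48 in Control and 9.35 to 10.38 in VILI PBEF+/-. In VALI it was 9.89 to 12.24 with replicate 4 the highest, and in PBEF+/- 10.52 to 11.75 with replicate 3 the lowest. The sum of 7 club and ciliated cell markers moved against the members too. It was 16.98 to 17.13 in Control and 16.515 to 16.67 in VILI PBEF+/-. In VALI it was 16.68 to 16.95 with replicate 4 the highest, and in PBEF+/- 16.84 to 17.01 with replicate 3 the lowest. Which part neutrophil, B cell or club and ciliated cell RNA has in the members' rise was not tested.

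Proliferation markers were mixed. The sum of 17 cycling cell markers lay between 12.70 and 13.00 in Control, 12.89 and 13.14 in VALI, 12.87 and 13.08 in PBEF+/-, and 12.86 and 12.98 in VILI PBEF+/-. Cdk1, Aurka, Aurkb, Plk1 and Ccna2 exceeded the array median in 0 of 14 arrays, and 0 of the 11 tested markers passed with all arrays, while 1 rose and 2 fell without the 2 arrays. The median difference of the 11 was -0.17 with all arrays and -0.31 without the 2 arrays. Pcna, the sliding clamp of DNA replication, weighs most in the sum. It read 11.96 to 12.23 in Control, 12.12 to 12.51 in VALI, 11.96 to 12.50 in PBEF+/- and 12.32 to 12.41 in VILI PBEF+/-. Mki67 went the other way, at 7.37 to 8.02 in Control and 6.53 to 7.25 in VILI PBEF+/-. So did Mcm2, at 7.47 to 8.01 in Control and 6.93 to 6.98 in VILI PBEF+/-. Macrophage sums overlapped between groups, at 15.72 to 16.21 in Control and 16.01 to 16.08 in VILI PBEF+/-. Endothelial sums were 15.71 to 15.91 in Control, 15.34 to 15.61 in VALI, 15.54 to 15.67 in PBEF+/- and 15.50 to 15.57 in VILI PBEF+/-. They lay below Control in every other group, including the unventilated PBEF+/- group. Skeletal muscle sums were 16.11, 9.77, 9.26 and 16.85 in VALI, in replicate order, and at most 8.36 in Control, so that the high values belong to VALI replicates 1 and 4, of which one had a score above 0 and one below. In ventilation averaged over both label pairs with all arrays, 5 of 7 club and ciliated cell markers, 2 of 10 endothelial, 1 of 6 alveolar type II and 1 of 7 alveolar type I markers fell, and 1 of 12 macrophage and 1 of 6 skeletal muscle markers rose. In limma 0 of 7 B cell, 0 of 8 T and NK cell, 0 of 8 heart and 0 of 1 thymus markers passed with all arrays, and without the 2 arrays 7, 2, 4 and 1 of them fell and 0, 1, 0 and 0 rose. The 3′ minus 5′ difference of the Actb control probe sets, a sign of RNA integrity, was 0.60 to 0.77 in Control, 0.57 to 0.66 in VALI, 0.50 to 0.74 in PBEF+/- and 0.55 to 0.60 in VILI PBEF+/-. For Gapdh it was 0.47 to 0.79 in Control and 0.40 to 0.52 in VALI. In PBEF+/- the Gapdh difference was 0.30 to 0.80, and in VILI PBEF+/- 0.48 to 0.53. Their part in the members' rise was not tested.

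The sex pattern of the arrays, read from Xist and Y-linked probe sets, was not balanced. It was male in 2 Control arrays, in VALI replicate 4 and in PBEF+/- replicate 2, and female in all other arrays, including every array of VILI PBEF+/-. All 7 arrays with a score above 0 had the female pattern. With sex pattern as a covariate in limma, 0 of the 40 members passed in ventilation averaged over both label pairs, beside 0 of 11360 genes. The smallest adjusted p among the members was 0.0526 for Wdr43, while 39 differences stayed above 0 with a median of 0.40. Among the 10 arrays with the female pattern alone, the score was -0.32 and -0.30 in Control, 0.18 to 0.36 in VALI, -0.37 and 0.31 in PBEF+/-, and 0.36 to 0.41 in VILI PBEF+/-. The unventilated PBEF+/- replicate 3 thus lay among the ventilated arrays here too. In these 10 arrays 15 members rose, beside 955 of 11360 genes called, of which 431 were higher. With PBEF+/- replicate 3 also left out 31 members rose, beside 4431 genes called (1528 higher), and with the sex covariate and neither of the 2 arrays 28 did, beside 3123 (1170 higher).

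**Figure D5:**
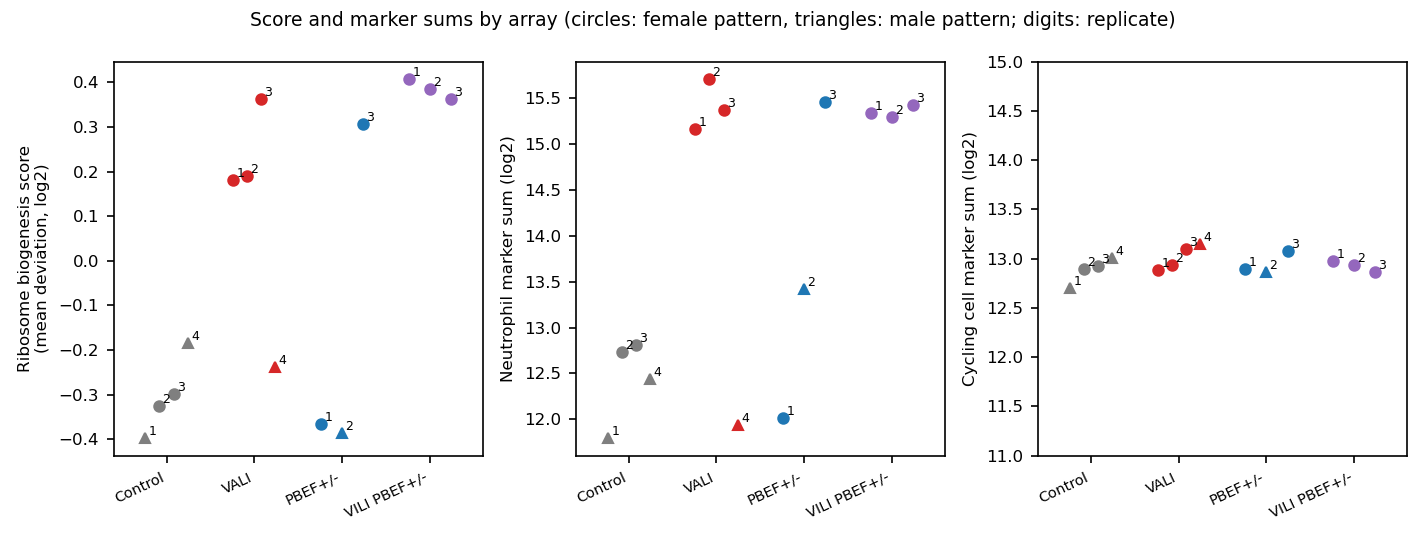
Mean deviation of the 40 members (left), log2 sum of neutrophil markers (middle) and log2 sum of cycling cell markers (right) by array and group, with circles for the female and triangles for the male pattern and digits for the replicate. The 7 arrays with a score above 0 are circles and have neutrophil sums above 15, while cycling cell sums stay between 12.70 and 13.14 in all 14 arrays.

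Other probe sets of the same genes gave a further reading. The 40 members had 83 probe sets, 28 members had several, and 35 of the probe sets not used passed the filter on low values, for 27 genes. In ventilation averaged over both label pairs 32 of these 35 were above 0 with all arrays, and 31 had the sign of the probe set used. For Ddx21 the other probe set differed by 1.50 against 0.57 for the one used, and for Nolc1 the others differed by 0.81 and 1.29 against 0.52. For Noc3l the other probe set differed by 0.88 against 0.15, and for Dkc1 the others differed by -0.30 and 0.34, so these genes' sizes depend on the probe set. Probe sets of 1 gene are readings of the same RNA and are not replicates.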

How the data were processed

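RNA of 14 whole-lung samples was hybridised to Affymetrix arrays with 45101 probe sets. The table deposited by the authors holds 1 value per probe set and array, which by its range (0.446 to 16.1) and array medians (4.60 to 4.75) is on a log2 scale. MAS5 and GCRMA are listed per the submitters' processing notes, and which of them made these values is not given in the sources used here. Depending on that choice, low values can be compressed, so differences of dim probe sets are less certain. No scanner files, slides or scan dates were used here, and the number of arrays limits the precision.

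Probe sets were named from the platform annotation, where 34958 had 1 symbol, 932 had several and 9211 had none. Of the 34958, 34754 matched RefSeq by gene identifier. Each gene was represented by its probe set of highest mean, and genes above the array median in at least 3 of 14 arrays were kept, which left 11360. A model with 4 group means was fitted to all of them in limma 3.58.1 (R 4.3.3, eBayes with a variance trend), with Benjamini-Hochberg adjustment over all genes tested and a threshold of 0.05. From it came 6 contrasts: ventilation within each label pair, the label within each ventilation state, the interaction of both, and the average of both ventilation responses. The ± after a difference is its standard error. Tables were handled in pandas 2.3.3 and plots drawn in matplotlib 3.10.9. The fit was tested on simulated data.

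In each role, the genes described by array were the one with the smallest p in VALI against Control, the one with the smallest p in the averaged comparison and the one with the highest mean, and any other gene is said to be chosen after its values were seen or is given by its difference alone. Other pathway genes were named by the smallest p in the same comparisons. The members, the 7 pathway lists, the 12 marker lists and the tests were chosen with earlier results of these data known. Replicate numbers were not taken to pair the arrays. Same-numbered arrays of different groups had correlations of their deviations between -0.35 and 0.32 (median -0.04) over 19 pairs. Arrays with different numbers had -0.69 to 0.49 (median -0.02) over 54 pairs. In groups of 3 or 4 arrays such correlations cannot exclude a pairing. Alternatives covered the filter, the probe set, the scaling, the variance model, the arrays in the fit, a replicate block, the sex pattern and leaving out each array. Protein sequences were not analysed here.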

Additional observations from a re-analysis of the deposited data

Results flagged for a closer look

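Within the groups of 4 arrays, the highest or lowest array was set against its neighbours by Dixon's ratio, the gap to the nearest array over the group's whole range, for the 40 members and their score. Of 82 such groups 9 exceeded the limit of 0.829, where chance gives about 1 in 20. VALI replicate 4 stood apart as the lowest VALI array for Rrs1 (ratio 0.944, log2 value 11.10), Ppan (0.949, 7.74), Wdr43 (0.906, 9.67) and Wdr12 (0.850, 7.57). In Control, replicate 4 stood apart as the highest array for Nop14 (ratio 0.918, log2 value 8.86), Brix1 (0.904, 10.20) and Nop10 (0.837, 11.54). Control replicate 3 was the lowest for Bms1 (ratio 0.971, log2 value 11.01), and Control replicate 1 the lowest for Heatr1 (0.832, 7.76).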

How the results depend on the processing

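The direction of the averaged ventilation response was kept more widely than the calls: over 28 alternatives the members' median difference stayed between 0.40 and 0.70, and 37 to 39 of 40 differences were above 0. The number of members called, 16 with all arrays, was 2 with no filter on low values (99 genes in all, against 950), 10 with arrays centred on their medians (889), 0 with the sex pattern as a covariate (0), 31 without both VALI replicate 4 and PBEF+/- replicate 3 (4485), 28 without both and with the sex covariate (3123), and 31 in the arrays of female pattern without PBEF+/- replicate 3 (4431). Leaving out 1 array gave 0 to 29, with 0 in 8 of 14 fits. For VALI against Control, 0 with all arrays, the count was 1 in a fit of those groups alone, 24 without both arrays, 21 with the sex covariate added to that and 24 in the female pattern without PBEF+/- replicate 3, and leaving out 1 array gave 0 to 10. For VILI PBEF+/- against PBEF+/-, also 0 with all arrays, the same settings gave 26, 24 and 25, and leaving out 1 array gave 0 to 24. Nop10 changed sign to -0.0062 with the mean of its probe sets, -0.034 without both arrays, -0.0076 with the sex covariate added and -0.0022 in the female pattern without PBEF+/- replicate 3, with 0.0014 to 0.072 when 1 array was left out, and Bms1 changed to 0.052 with the mean of its probe sets, and none of these passed. Npm1 and Dkc1 also had no settled sign, being above 0 in 20 and 22 of 28 alternatives, with lowest values of -0.037 and -0.076. The cause of these changes was not tested, beyond the smaller number of arrays in some fits. The interaction's median turned from 0.12 to -0.09 in the arrays of female pattern. The replicate block, on numbers not known to pair the arrays, gave 15 called members in the averaged response (969 genes) and 0 in every other comparison. The settings with the female pattern and with both arrays left out beside the sex covariate were added after seeing the data. Fits of the compared groups alone were not run for the interaction and the average, which use all groups.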
